A study of Rattus norvegicus with 4 samples.

Results

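Bdnf, Ntrk2, Creb1, Crem, Sik1 and Gadd45b are described here across the cell types of the rat nucleus accumbens and between repeated cocaine and saline. They were taken by symbol from the deposited gene tables, where each symbol has 1 row, and are 6 of 30560 genes. Brain-derived neurotrophic factor (Bdnf) is a secreted growth factor whose gene is a textbook target of the transcription factor CREB, and Ntrk2 encodes TrkB, its receptor tyrosine kinase. Creb1 encodes CREB, which cAMP- and calcium-dependent kinases phosphorylate. Crem encodes related activators and repressors, among them the inducible repressor ICER. Sik1 encodes a salt-inducible kinase that holds CREB's coactivators in the cytoplasm, and Gadd45b encodes a stress- and activity-inducible protein linked to DNA demethylation. CREB and BDNF in the nucleus accumbens have long been studied for lasting responses to psychostimulants.

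Single-nucleus RNA-seq was made from 4 libraries of nucleus accumbens from Sprague-Dawley rats aged 90 to 120 days. Male or female rats received cocaine (20 mg/kg, intraperitoneal) or an equal volume of physiological saline daily for 7 days and were placed in an open field, and tissue was taken 1 h after the last injection. There was 1 library for each combination of treatment and sex, from 4 rats pooled before lysis, so each treatment has 2 libraries and the spread within a treatment cannot be told apart from sex. The punch was 2 mm wide and centred on the core subregion, and the nuclei were sorted on 7-AAD before 10x 3′ v3 capture.

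The libraries held 31484217 to 40737786 unique molecular identifiers (UMIs, 1 per captured RNA molecule) in 6213 to 7265 barcodes, and 24843 nuclei were kept. Any pair of libraries shared 10 to 18 cell barcodes. Classes carry the suffix "-like" because they were rebuilt from marker genes, with the 6 genes left out of the clustering. As a check, the class called D1-MSN-like had 105 CPM of Drd1 (CPM, the usual per-million scaling of UMI counts by the class total) against 2.61 in the class called D2-MSN-like. Drd2 went the other way, with 5.95 and 806 CPM. MSN stands for medium spiny neuron, the GABAergic projection neuron of the striatum, and eccentric MSNs are a smaller population marked here by Grm8. Slc17a7 was at 304 CPM in glutamatergic-like nuclei and at 1.29 CPM in other GABAergic nuclei. A class led by Stac, Klhl1 and Htr7 had 271 CPM of Gad1 and no more specific name, and is called other GABAergic.

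The promoter stretches below are shown because CREB binds the 8-base cAMP response element TGACGTCA and its 5-base core TGACG, read as CGTCA on the other strand; both are in capitals. They come from RefSeq gene starts on GRCr8 and cover the 250 bases before the start (252 for Gadd45b, whose match crosses the start), 5′ to 3′ on the gene's strand. Of the 6 genes, 5 had windows, 13 in all for their alternative starts. TGACGTCA is its own reverse complement and occurs in 1.83% of all 33469 windows of 300 bases, and TGACG or CGTCA, which it contains, in 21.2%.
Bdnf, chr3:116637608-116637857 (+): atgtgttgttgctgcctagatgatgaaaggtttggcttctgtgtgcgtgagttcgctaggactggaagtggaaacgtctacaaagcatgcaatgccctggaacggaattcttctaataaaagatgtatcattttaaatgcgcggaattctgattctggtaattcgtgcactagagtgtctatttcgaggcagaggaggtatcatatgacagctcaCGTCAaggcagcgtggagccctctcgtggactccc
Crem, chr17:58984547-58984796 (+): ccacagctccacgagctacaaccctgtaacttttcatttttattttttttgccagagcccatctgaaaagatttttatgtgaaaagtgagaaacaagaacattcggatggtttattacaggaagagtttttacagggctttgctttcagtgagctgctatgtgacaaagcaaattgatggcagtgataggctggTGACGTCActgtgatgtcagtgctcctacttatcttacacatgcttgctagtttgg
Crem, chr17:58985240-58985489 (+): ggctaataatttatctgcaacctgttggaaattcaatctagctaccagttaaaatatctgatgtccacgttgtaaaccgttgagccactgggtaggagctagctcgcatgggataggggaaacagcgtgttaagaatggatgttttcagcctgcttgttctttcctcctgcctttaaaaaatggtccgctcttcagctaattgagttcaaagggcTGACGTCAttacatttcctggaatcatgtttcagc
Sik1, chr20:9958647-9958896 (−): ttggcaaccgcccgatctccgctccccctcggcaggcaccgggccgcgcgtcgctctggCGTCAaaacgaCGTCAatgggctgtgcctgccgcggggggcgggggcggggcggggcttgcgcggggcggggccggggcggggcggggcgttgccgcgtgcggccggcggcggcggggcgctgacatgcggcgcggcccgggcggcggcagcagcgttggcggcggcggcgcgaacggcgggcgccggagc
Gadd45b, chr7:9430717-9430968 (−): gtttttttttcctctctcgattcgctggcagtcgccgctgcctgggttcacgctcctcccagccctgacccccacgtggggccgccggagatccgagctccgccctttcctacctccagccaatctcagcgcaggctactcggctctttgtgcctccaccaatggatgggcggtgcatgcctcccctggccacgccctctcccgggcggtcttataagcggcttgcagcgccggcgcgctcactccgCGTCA
The full 8-base element is in 2 of the Crem windows, 56 and 35 bases before the start, and the latter window holds a further copy 39 bases after the start. The Bdnf stretch has 1 CGTCA, 35 bases before the start, and the other Bdnf windows have none. Sik1 has CGTCA 191 and 180 bases before its start, and Gadd45b has it 3 bases before. A Creb1 window has TGACG 80 and 59 bases before and 8 bases after its start. These are matches of letters, and no binding was measured.

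Bdnf RNA was rare and lay almost wholly in glutamatergic-like and other GABAergic nuclei. The libraries together gave 242 Bdnf UMIs in 141 nuclei. Glutamatergic-like nuclei held 143 of them in 72 of 447 nuclei, and other GABAergic nuclei held 87 in 58 of 1989. Against the mean of the other classes, Bdnf was 7.35 higher on the log2 scale in glutamatergic-like nuclei (SE 0.37, edgeR adjusted p = 5.5e-21) and 4.41 higher in other GABAergic nuclei (SE 0.45, edgeR adjusted p = 1.8e-11). Across all genes, 28.5% were called higher in the former class and 36.3% in the latter. Because many classes hold no Bdnf UMI, these fitted values have no exact size. Bdnf met the count filter of this test through the glutamatergic-like and other GABAergic classes. The direction was therefore given beforehand, and the p-values add no support to the counts. In the D1-, D2- and eccentric MSN-like classes together, 8 UMIs were found over all 4 libraries. No UMI was found in Pvalb/Pthlh-like, oligodendrocyte precursor-like, microglia-like, cholinergic-like, vascular-like or ependymal-like nuclei. In the saline female library 0 of 833 D1-MSN-like nuclei had one, for which the exact (Clopper-Pearson) 95% interval reaches 0.442% from counting error alone.

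In glutamatergic-like nuclei, Bdnf stood at 23.8 CPM in the saline female library, 35.6 in cocaine female, 15.0 in saline male and 27.4 in cocaine male. The UMIs behind these levels were 10, 96, 8 and 29, in 30, 252, 49 and 116 nuclei. Both cocaine libraries lay above both saline libraries in level, UMIs and nuclei. The difference was 0.62 on the log2 scale (SE 0.37, edgeR adjusted p = 1.00) and did not pass the test. No gene was called in this class among 8630 tested (percent called 0), 225 had an unadjusted p under 0.05, and both cocaine libraries lay above both saline libraries for 17.4% of genes. Single nuclei weighed on the level: without the nucleus with most Bdnf UMIs in each library, it was 14.9, 32.2, 11.7 and 16.2 CPM. The share of glutamatergic-like nuclei with at least 1 Bdnf UMI was 16.7%, 17.9%, 14.3% and 12.9%, in the same order of libraries, so it did not separate the treatments. Thinned to 1000 UMIs a nucleus, it was 0%, 2.38%, 0% and 3.45%.

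The glutamatergic-like class split into 2 sub-clusters whose mix differed between libraries. At the finer clustering, sub-cluster 16 held 7, 189, 42 and 57 nuclei and sub-cluster 19 held 23, 63, 7 and 59 (saline female, cocaine female, saline male, cocaine male). Bdnf was 0, 33.3, 11.9 and 12.3 CPM in sub-cluster 16. In sub-cluster 19 it was 29.0, 41.1, 26.5 and 40.2 CPM, higher than in sub-cluster 16 in each library. Within each sub-cluster both cocaine libraries lay above both saline libraries, by as little as 0.41 CPM in sub-cluster 16. The Bdnf UMIs behind these levels were only 0, 64, 5 and 6 in sub-cluster 16 and 10, 32, 3 and 23 in sub-cluster 19. No test was run in the sub-clusters, and the share of all genes that separate in this way was not taken there. How far the number of nuclei caught by the punch sets these values was not tested.

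**Figure D1:**
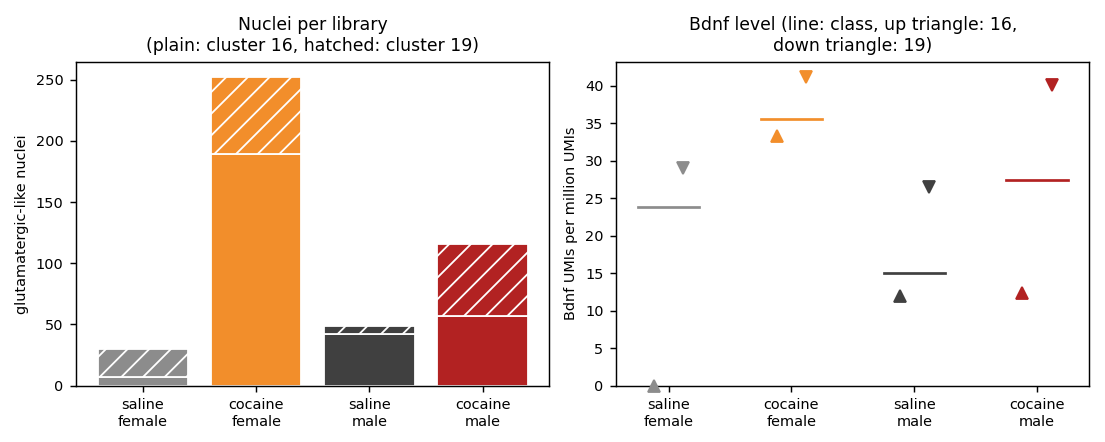
Left, glutamatergic-like nuclei in each library (plain bar, sub-cluster 16; hatched bar, sub-cluster 19). Right, Bdnf CPM of the class (line) and of sub-clusters 16 (up triangle) and 19 (down triangle). The 2 cocaine libraries hold 252 and 116 nuclei against 30 and 49 with saline, and their class levels of 35.6 and 27.4 lie above 23.8 and 15.0.

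Other GABAergic nuclei showed the opposite order. Their Bdnf UMIs were 56, 15, 13 and 3, and their levels 7.68, 4.13, 4.84 and 1.70 CPM on the scale of the cocaine test, which uses TMM-adjusted library sizes. Both cocaine libraries lay below both saline libraries, with a log2 difference of -1.04 (SE 0.44, unadjusted p = 0.033, edgeR adjusted p = 0.85) that did not pass. Called genes were 0.0735% of those tested in this class, and 17% had both cocaine libraries below both saline libraries. The class held 807, 493, 384 and 305 nuclei, or 13.3%, 7.21%, 6.50% and 5.04% of each library. At the finer clustering a cluster of 1911 nuclei led by Stac got no name, so this result was not checked there. The part of this uneven share in the Bdnf levels was not tested. The 58 nuclei with a Bdnf UMI had 85.4 CPM of Slc17a6, the vesicular glutamate transporter of subcortical neurons, against 8.91 CPM in the 1931 nuclei without one. Their pooled Gad1 level was 142 CPM against 275 CPM. The saline female library holds 34 of these nuclei and weighs most on the pooled values: Slc17a6 there was 112 CPM against 7.89 CPM and Gad1 45.5 against 252. Saline male had the same order on 9 nuclei, with Slc17a6 at 34.8 against 11.6 CPM and Gad1 at 104 against 267. In the cocaine libraries Gad1 was higher in nuclei with a Bdnf UMI, at 476 against 318 CPM on 12 female nuclei and 433 against 299 CPM on 3 male nuclei. Slc17a6 was 33.2 against 9.30 CPM in cocaine female, and 0 against 8.16 CPM in cocaine male.

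In the glutamatergic-like class of the 2 cocaine libraries, which alone had enough nuclei to divide, Bdnf was concentrated in nuclei rich in activity genes. The 25 and 12 nuclei in the top 10% by share of immediate-early gene UMIs held 45.8% and 58.6% of the Bdnf UMIs in the female and male libraries. Their Bdnf level was 138 and 178 CPM against 21.9 and 12.5 CPM in the other nuclei. Single nuclei weigh on these values: the nucleus with most Bdnf UMIs held 10 of the 96 in cocaine female and 12 of the 29 in cocaine male. This is a description of 2 libraries with no test.

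Ntrk2, the receptor, was found in nearly all neuronal and astrocyte-like nuclei and hardly in oligodendrocyte-like or microglia-like nuclei. The libraries gave 90949 Ntrk2 UMIs in 15201 nuclei. These 3′ counts are per gene and do not separate transcript forms of Ntrk2, with or without the kinase part. Astrocyte-like nuclei ranked highest at 1604, 1889, 1508 and 1582 CPM, with libraries ordered as before. Glutamatergic-like nuclei followed at 1264 to 1625 CPM and Pvalb/Pthlh-like interneurons at 1210.1 to 1402 CPM, each overlapping its neighbour. A gap followed before eccentric MSN-like nuclei at 742 to 1022 CPM, other GABAergic nuclei at 689.8 to 952 CPM and Sst-like interneurons at 478 to 931 CPM. Oligodendrocyte precursor-like nuclei (643 to 785 CPM), D1-MSN-like nuclei (574 to 745 CPM) and D2-MSN-like nuclei (552 to 620.3 CPM) overlapped as neighbours. Cholinergic-like nuclei had 258 to 286 CPM from 21 to 90.0 UMIs a library. The lowest tested classes were oligodendrocyte-like (11.6 to 21.5 CPM) and microglia-like (5.48 to 29.8 CPM).

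Tested against the mean of the other classes, Ntrk2 was higher by 2.03 in astrocyte-like nuclei (log2, SE 0.078, edgeR adjusted p = 8.9e-29), where 33.9% of all genes were called higher. The same difference was 1.97 in glutamatergic-like and 1.71 in Pvalb/Pthlh-like nuclei. It was 0.77 in D1- and 0.67 in D2-MSN-like nuclei. In microglia-like nuclei it was -5.36 (SE 0.25) and in oligodendrocyte-like nuclei -5.22 (SE 0.24), classes in which 33.2% and 28.5% of genes were called lower. The mean of the other classes is taken on the log scale, so these 2 classes pull it down. By CPM, D1- and D2-MSN-like nuclei lay below most of the tested classes. Among all 6 genes and 11 classes, 29 pairs were called higher and 18 lower. The background was 21.3% to 40.7% of genes called higher by class and 12.2% to 33.2% called lower. Classes come from the same nuclei, so these tests describe the classes as clustered.

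The share of nuclei with at least 1 Ntrk2 UMI was 90.9%, 88.9%, 87.4% and 85.4% in D1-MSN-like nuclei (saline female, cocaine female, saline male, cocaine male). In oligodendrocyte-like nuclei the shares were 2.38%, 3.25%, 2.06% and 2.48%. In microglia-like nuclei they were 0.995%, 4.29%, 1.99% and 2.14%, at a median depth of 1349 UMIs a nucleus. With each nucleus thinned to 1000 UMIs, the D1 shares were 34.5%, 39.3%, 36.3% and 37.5%, still far above the thinned oligodendrocyte-like shares of 0.940% to 1.71%.

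**Figure D2:**
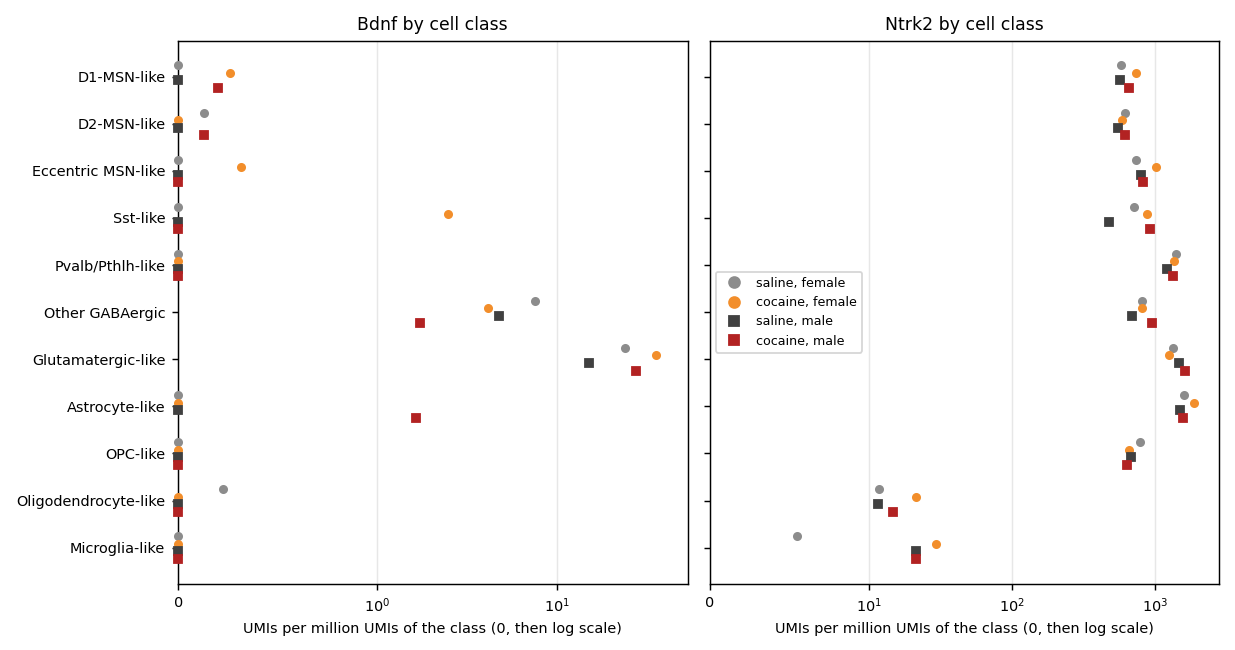
Bdnf (left) and Ntrk2 (right) CPM of each class, 1 point per library; the axis is linear near 0 and logarithmic above, grey points are saline and coloured points cocaine, circles female and squares male. Bdnf is above 10 only in glutamatergic-like nuclei, whereas Ntrk2 lies above 470 in 9 of the 11 classes and below 30 in oligodendrocyte-like and microglia-like nuclei.

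Creb1 was detected in every class with a narrow range. Microglia-like nuclei had 181 to 200 CPM, oligodendrocyte-like nuclei 130 to 157 CPM, astrocyte-like nuclei 114 to 146 CPM and oligodendrocyte precursor-like nuclei 115 to 149 CPM. The 7 neuronal classes lay between 52.4 and 85.6 CPM in every library, below all 4 glial classes. Against the mean of the other classes, the log2 difference was 0.87 in oligodendrocyte-like nuclei (SE 0.056, edgeR adjusted p = 1.4e-19) and 0.84 in microglia-like nuclei (SE 0.11, edgeR adjusted p = 1.4e-09). In oligodendrocyte-like nuclei 40.7% of genes were called higher, and in microglia-like nuclei 25.6%.

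Crem was also highest, among tested classes, in glia. Oligodendrocyte-like nuclei had 93.9, 93.5, 106 and 93.8 CPM (saline female, cocaine female, saline male, cocaine male) and astrocyte-like nuclei 79.4, 66.8, 59.7 and 70.9 CPM. The D1-, D2- and eccentric MSN-like classes had 20.5 to 30.8 CPM. The log2 difference from the other classes was 1.87 (SE 0.069, edgeR adjusted p = 1.5e-29) in oligodendrocyte-like and 1.15 (SE 0.093, edgeR adjusted p = 1.4e-15) in astrocyte-like nuclei. These 3′ counts are per gene and do not separate the Crem isoforms.

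Sik1 was low in most classes and highest, among tested classes, in microglia-like nuclei. The level there was 27.4, 26.8, 26.8 and 25.8 CPM, but from only 10, 9, 5 and 6 UMIs. Its log2 difference from the other classes was 1.65 (SE 0.39, edgeR adjusted p = 0.00031). Pvalb/Pthlh-like nuclei followed at 7.84 to 22.9 CPM, with a difference of 1.11 (SE 0.32, edgeR adjusted p = 0.0029). D1-MSN-like nuclei had 5.83 to 11.6 CPM and D2-MSN-like nuclei 9.42 to 13.3 CPM, which overlap. Astrocyte-like nuclei had 0.746 to 6.01 CPM and oligodendrocyte precursor-like nuclei no UMI in either saline library and 4 and 2 UMIs with cocaine.

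Among tested classes, Gadd45b was highest in oligodendrocyte-like nuclei and next in glutamatergic-like and MSN-like nuclei. Oligodendrocyte-like nuclei had 35.6 and 30.5 CPM in the female libraries and 20.9 and 21.2 CPM in the male libraries, so the 2 sexes did not overlap and the treatments did. Glutamatergic-like nuclei had 0, 10.7, 18.8 and 30.2 CPM, a wide spread. D1-MSN-like nuclei had 6.77 to 11.1 CPM and D2-MSN-like nuclei 7.01 to 10.8 CPM. Gadd45b had no UMI in microglia-like nuclei. Vascular-like nuclei, too few to test, had 22.0 to 85.5 CPM from 1 to 4 UMIs a library. The log2 difference from the other classes was 3.74 in oligodendrocyte-like nuclei (SE 0.26, edgeR adjusted p = 1.2e-17), 2.61 in glutamatergic-like, 2.02 in D1 and 2.01 in D2 nuclei. The mean of the other classes is on the log scale and includes microglia-like nuclei without a Gadd45b UMI, so these fitted values have no exact size.

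**Figure D3:**
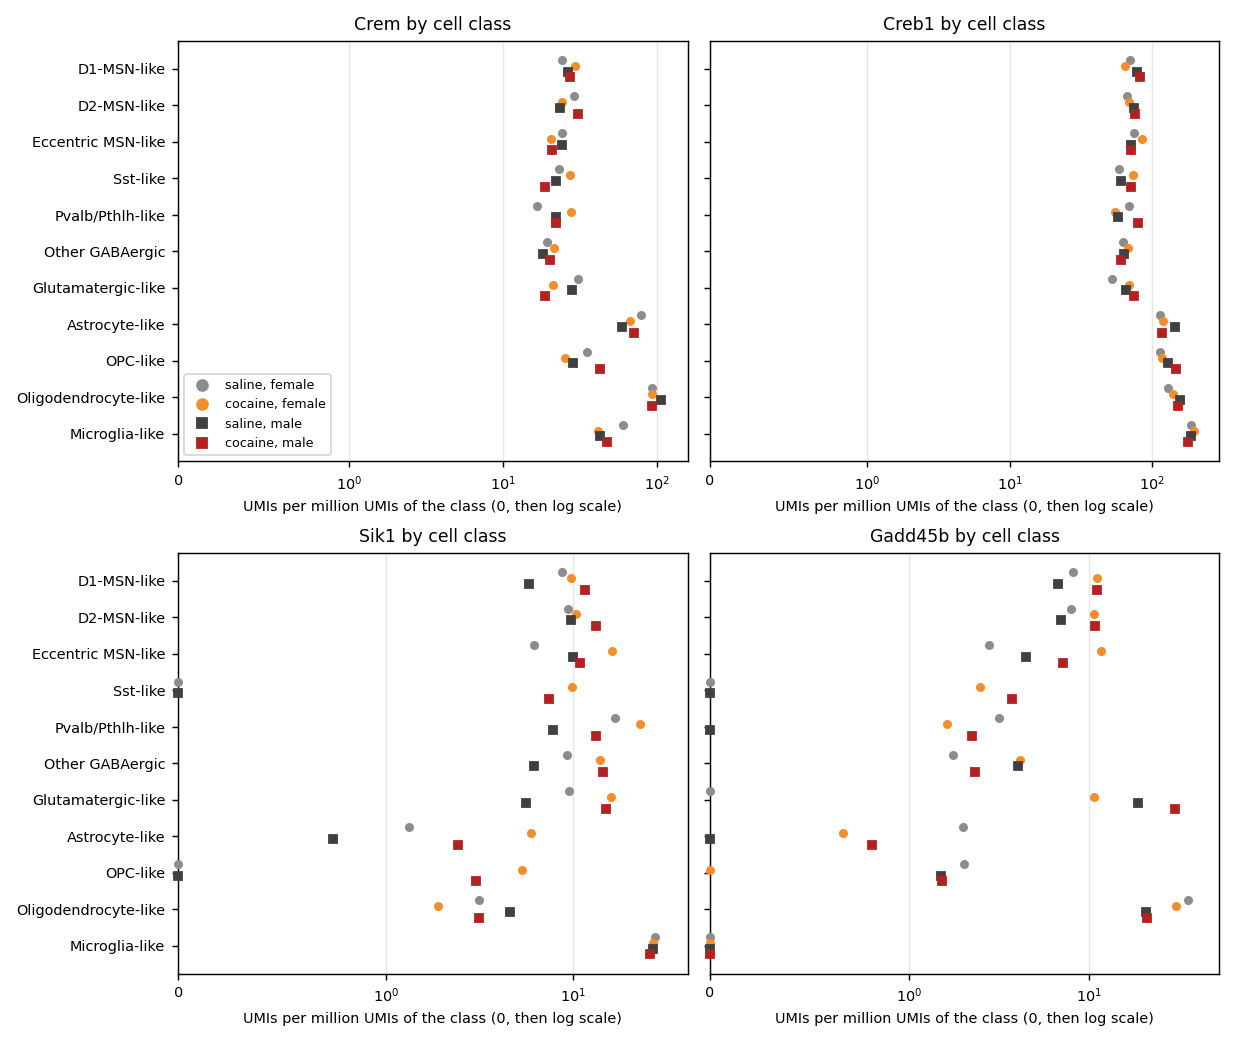
CPM of each class for Crem, Creb1, Sik1 and Gadd45b, 1 point per library; the axis is linear near 0 and logarithmic above, grey points are saline and coloured points cocaine, circles female and squares male. Crem and Gadd45b are highest among tested classes in oligodendrocyte-like nuclei (93.5 to 106 and 20.9 to 35.6), and Creb1 and Sik1 in microglia-like nuclei (181 to 200 and 25.8 to 27.4).

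Cocaine was compared with saline within each class on UMIs summed per library, with sex in the model. None of 45 tests of a gene in a class passed with edgeR, 12 had an unadjusted p under 0.05, and DESeq2 called none. Between 0% and 1.55% of all genes were called in these classes (0.226% in D1-, 0.0471% in D2- and 0.279% in eccentric MSN-like nuclei). Both cocaine libraries lay above both saline libraries in 15 of the 45 tests and below in 5. For all genes the share above was 15.9% to 18.4% by class and the share below 15.4% to 18.9%. Levels in this and the next paragraphs on cocaine are CPM on TMM-adjusted library sizes.

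Sik1 tended to the cocaine side without passing. It was testable in 6 classes, its log2 differences ran from 0.25 to 0.95, and both cocaine libraries lay above both saline libraries in 5 classes. In D1-MSN-like nuclei it was 8.89 CPM in saline female, 9.82 in cocaine female, 5.87 in saline male and 11.4 in cocaine male, a log2 difference of 0.54 (SE 0.21, edgeR adjusted p = 0.50). The female pair differed little and the male pair more. In other GABAergic nuclei it was 9.46, 14.0, 6.33 and 14.2 CPM, a difference of 0.78 (SE 0.31, edgeR adjusted p = 0.83). In eccentric MSN-like nuclei the values were 6.20, 16.2, 10.2 and 10.9 CPM, a difference of 0.74 (SE 0.31, edgeR adjusted p = 0.46) that came mainly from the female pair.

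Gadd45b gave a like picture in the 3 MSN-like classes. In D1-MSN-like nuclei it was 8.30, 11.1, 6.81 and 10.9 CPM, a log2 difference of 0.55 (SE 0.18, edgeR adjusted p = 0.39). In D2-MSN-like nuclei it was 8.09, 10.6, 7.14 and 10.6 CPM, a difference of 0.48 (SE 0.19, edgeR adjusted p = 0.50). In eccentric MSN-like nuclei it was 2.79, 11.7, 4.60 and 7.12 CPM from 9, 37, 14 and 19 UMIs, a difference of 1.36 (SE 0.39, edgeR adjusted p = 0.20). With 1 library left out it ran from 0.94 to 1.76 (edgeR adjusted p 0.035, without saline replicate 2, to 0.998), and with a marker gate it was 0.53 (edgeR adjusted p = 0.90). All 3 classes had both cocaine libraries above both saline libraries, and none passed with all libraries. In oligodendrocyte-like nuclei, where the gene is highest, the difference was -0.19 (SE 0.18) and the treatments overlapped.

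Estimates for Ntrk2 varied by class, and none passed with all libraries. In D1-MSN-like nuclei it was 590.2, 748, 578 and 653 CPM (saline female, cocaine female, saline male, cocaine male) from 5046 to 8534 UMIs, a log2 difference of 0.26 (SE 0.074, edgeR adjusted p = 0.31). Both cocaine libraries lay above both saline libraries. In D2-MSN-like nuclei it was 627, 587, 563 and 608 CPM, a difference of 0.01 (SE 0.068, edgeR adjusted p = 0.99), and the treatments overlapped. In Sst-like interneurons it was 784, 961, 523 and 980.0 CPM, a difference of 0.59 (SE 0.16, edgeR adjusted p = 0.060), just short of the threshold. The class held 39 to 71 nuclei a library. It passed without saline replicate 1 (0.89, edgeR adjusted p = 0.038) or with nuclei gated on markers (0.68, edgeR adjusted p = 0.043). It was 0.31 without saline replicate 2 (edgeR adjusted p = 0.82), and the adjusted p reached 0.98 with 1 library left out. The 9 MSN markers summed to 2846, 3704, 2912 and 4162 CPM in this class and the 6 D1 markers to 56.0, 203, 153 and 202 CPM, both higher with cocaine (4 of 9 and 4 of 6 without overlap); their part was not tested. In astrocyte-like nuclei, which have the highest level, it was 1624, 1888, 1564 and 1576 CPM, a difference of 0.12 (SE 0.095, edgeR adjusted p = 0.82).

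Crem and Creb1 did not separate the treatments in most classes. Crem in D1-MSN-like nuclei was 24.7, 29.5, 26.8 and 26.8 CPM, a log2 difference of 0.13 (SE 0.11, edgeR adjusted p = 0.79). Over 10 classes its differences ran from -0.65 in glutamatergic-like nuclei to 0.34 in Pvalb/Pthlh-like nuclei, and none had an unadjusted p under 0.05. Creb1 overlapped between treatments in 10 of 11 classes, with differences from -0.15 to 0.23. In D1-MSN-like nuclei Creb1 was 71.0, 65.6, 78.8 and 81.8 CPM, a difference of -0.03 (SE 0.085).

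**Figure D4:**
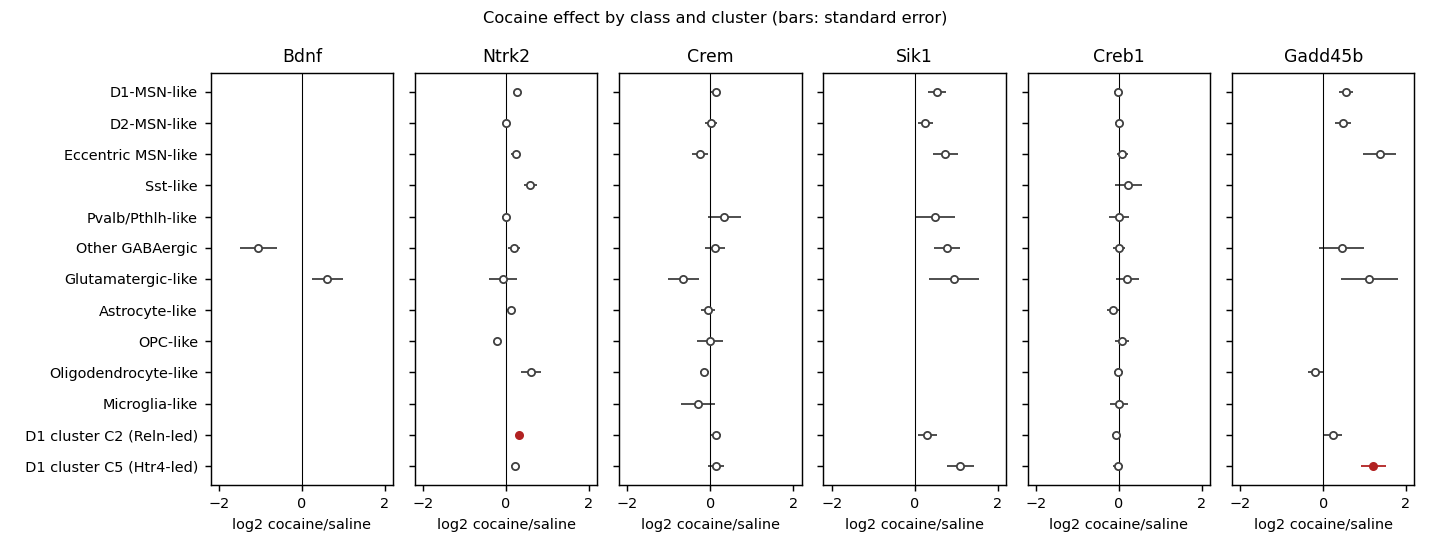
Log2 difference of cocaine from saline with its standard error (bars) for each gene in each class and in the 2 D1-MSN-like clusters, where the gene was testable. Filled red points passed an edgeR adjusted p of 0.05. Those are Ntrk2 in cluster C2 (0.31) and Gadd45b in cluster C5 (1.21), and no class-level point is filled.

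The study asks about subpopulations of D1 neurons, so the same test was run within the clusters of the D1- and D2-MSN-like classes. Cluster C2, led by Reln, and cluster C5, led by Htr4, make up the D1-MSN-like class. Of 19 tests of a gene in a cluster, 2 passed, where 2.18% of genes in C2, 0.974% in C5, 0.439% in C1 and 0.182% in C12 were called. Ntrk2 rose in C2, at 604 CPM in saline female, 781 in cocaine female, 560.2 in saline male and 665 in cocaine male (3820, 5227, 3263 and 4392 UMIs). Its log2 difference was 0.31 (SE 0.073, edgeR adjusted p = 0.0027), and the 2 sexes gave 0.37 and 0.25. In C5 it was 548, 705, 604 and 635 CPM, a difference of 0.22 (SE 0.10, edgeR adjusted p = 0.56).

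Gadd45b rose in C5, at 4.02, 13.2, 6.59 and 12.5 CPM from 9, 62, 31 and 43 UMIs. The log2 difference was 1.21 (SE 0.30, edgeR adjusted p = 0.016), with both cocaine libraries above both saline libraries. In C2 it was 9.80, 9.71, 7.04 and 10.1 CPM, a difference of 0.24 (SE 0.22, edgeR adjusted p = 0.75), and the treatments overlapped. Sik1 in C5 was 6.70, 9.16, 4.68 and 13.9 CPM, a difference of 1.10 (SE 0.32, edgeR adjusted p = 0.058), which did not pass (0.047 with RLE scaling, 0.039 with no filter and 0.040 at the finer clustering). Neither the Ntrk2 nor the Gadd45b call held with DESeq2 (adjusted p = 1.00 for each), without sex in the model, or without any 1 of the 4 libraries, and both held with RLE scaling and with no filter on low counts.

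The clusters themselves were not shown to differ in their response. The C2 minus C5 difference of the cocaine effect was -0.91 for Gadd45b (SE 0.37, unadjusted p = 0.024, edgeR adjusted p = 1.00) and 0.09 for Ntrk2 (SE 0.11, edgeR adjusted p = 1.00). None of 12667 genes was called in that comparison. The C2 minus C1 difference for Ntrk2, C1 being the larger D2-MSN-like cluster, was 0.29 (SE 0.072, edgeR adjusted p = 0.18), with 0.0933% of genes called; it passed without saline replicate 1 (0.31, edgeR adjusted p = 0.016) or saline replicate 2 (0.30, edgeR adjusted p = 0.011) but fell to 0.17 without cocaine replicate 1 (edgeR adjusted p = 0.97). These 2 comparisons use the same 4 libraries, saline and cocaine, as the tests above and are not independent of them.

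Between the whole D1- and D2-MSN-like classes, the Ntrk2 effect differed by 0.26 on the log2 scale (95% interval 0.14 to 0.39, edgeR adjusted p = 0.060), just short of the threshold, and 0.181% of genes were called. Without saline replicate 2 it was 0.33 (edgeR adjusted p = 5.9e-05) and without cocaine replicate 2 0.38 (edgeR adjusted p = 0.0091); without cocaine replicate 1 it was 0.14 (edgeR adjusted p = 0.95). Crem (0.11, interval -0.20 to 0.43), Sik1 (0.29, -0.19 to 0.77), Gadd45b (0.08, -0.41 to 0.56) and Creb1 (-0.01, -0.20 to 0.18) did not pass either. Among the pathway genes listed below, 2 passed. Shc3, a neuronal Trk adaptor, differed by 0.60 (SE 0.089, edgeR adjusted p = 0.00016; 0.42 and 0.11 without cocaine replicate 1). Sik2, another salt-inducible kinase, differed by 0.35 (SE 0.081, edgeR adjusted p = 0.049); that call was lost with RLE scaling (edgeR adjusted p = 0.11), without cocaine replicate 1 (0.19, edgeR adjusted p = 0.93) and without saline replicate 2 (0.23, edgeR adjusted p = 0.36).

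Nuclei were then ranked, within each MSN-like class and library, by the share of their UMIs from immediate-early genes such as Fos, Egr1, Nr4a1 and Arc. Homer1 and the 6 genes themselves were left out of that share, and nuclei under 3000 UMIs were not ranked. The split was added after the class results had been seen. The cut marks a range and not a cell type: the D1 top 10% held 82, 134, 133 and 130 nuclei, and the top 20% held 164, 268, 266 and 261. Median depth of the D1 top 10% was 9994, 8280, 7041 and 6462 UMIs against 10040, 7845, 7433 and 6878 in the other 90% (saline female, cocaine female, saline male, cocaine male).

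Ntrk2 was concentrated in these activity-high nuclei in every library, saline included. In D1-MSN-like nuclei it stood at 1567 CPM in saline female, 2807 in cocaine female, 1217 in saline male and 2044 in cocaine male. In the other 90% it was 474, 506, 508 and 519 CPM, a narrow range. The ratios were 3.31, 5.54, 2.39 and 3.94, and the top 10% of nuclei held 26.8%, 39.0%, 20.0% and 29.8% of the class's Ntrk2 UMIs. Among 6690 genes above 20 CPM, 24 had a lowest ratio at least as high as the Ntrk2 value of 2.39, and the median gene's ratio was 0.851 to 0.971. In D2-MSN-like nuclei the Ntrk2 level was 1778, 1897, 1258 and 1924 CPM against 482.5, 439.5, 477.5 and 464 CPM. In eccentric MSN-like nuclei it was 1562, 3302, 2277 and 2927 CPM against 646, 753, 658 and 624 CPM. In all 3 classes the lowest top value lay above the highest value of the rest.

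Sik1 had the highest ratios of the 5 genes compared in D1 nuclei, on few UMIs. In D1-MSN-like nuclei it was 37.2, 56.0, 17.0 and 54.5 CPM in the top 10% against 5.52, 4.40, 4.69 and 6.89 CPM in the rest (32, 66, 17 and 52 UMIs against 43, 45, 45 and 61). Crem in the top 10% of D1 nuclei was 37.2, 84.8, 26.0 and 54.5 CPM, against 22.8, 23.0, 26.8 and 24.5 CPM in the rest. The Crem ratio ranged from 0.970 for saline male to 3.69 for cocaine female. Creb1 did not follow activity: its D1 ratios were 0.851, 1.10, 1.41 and 0.927. Gadd45b had ratios of 2.68, 1.94, 1.55 and 1.61 in D1 nuclei and of 0.760, 0.671, 0.594 and 1.27 in D2 nuclei.

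**Figure D5:**
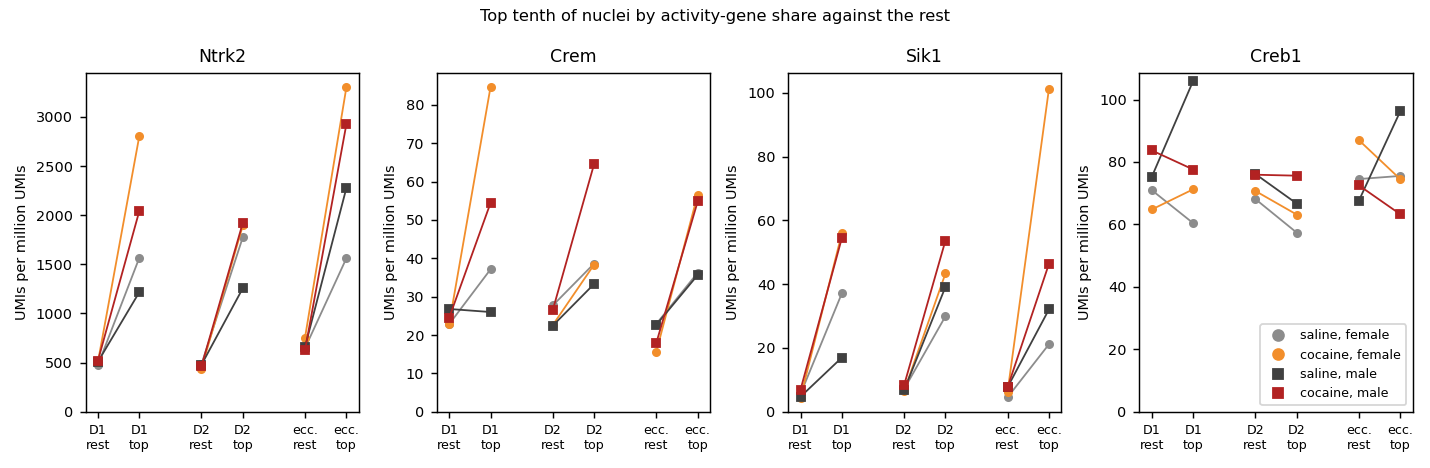
CPM of Ntrk2, Crem, Sik1 and Creb1 in the top 10% of nuclei by activity-gene share (top) and the other nuclei (rest) of D1-, D2- and eccentric MSN-like classes, 1 line per library, on linear axes from 0. Every Ntrk2 and Sik1 line rises from rest to top; in D1 nuclei Ntrk2 runs from 474 to 519 in the rest to 1217 to 2807 in the top.

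The cocaine comparison was repeated in both portions. In the top 10%, 6 of 13 tests passed, against 2.56% of all genes called in D1, 2.11% in D2 and 2.48% in eccentric MSN-like nuclei. In the other 90%, none of 15 passed with edgeR or DESeq2, 3 had an unadjusted p under 0.05, and 0.0611%, 0.948% and 0.481% of genes were called. Ntrk2 rose in the top 10% of D1 nuclei by 0.86 (log2, SE 0.087, edgeR adjusted p = 4.6e-05), of D2 nuclei by 0.37 (SE 0.088, edgeR adjusted p = 0.0027) and of eccentric nuclei by 0.78 (SE 0.16, edgeR adjusted p = 0.00026). In the other 90% the Ntrk2 differences were 0.03, -0.13 and 0.05. Crem rose in the top 10% of D1 nuclei by 1.20 (SE 0.23, edgeR adjusted p = 0.0081), and Sik1 in D1 nuclei by 1.12 (SE 0.28, edgeR adjusted p = 0.045) and in eccentric nuclei by 1.57 (SE 0.45, edgeR adjusted p = 0.026). Creb1 did not pass in either portion of any class. Within the D1 class, the top 10% of cluster C2 gave an Ntrk2 difference of 1.05 (SE 0.12, edgeR adjusted p = 7.0e-17, 5.35% of genes called). That of C5 gave 0.64 (SE 0.16, edgeR adjusted p = 0.23, 0.0858% called). Whether these differ was not tested. Each gene keeps 1 residual degree of freedom here, so these p-values rest largely on spread borrowed across genes. No alternative fit is given for these 2 portions.

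The difference between the portions was tested with library as a block. For Ntrk2 the cocaine effect was larger in the top 10% by 0.86 in D1 (SE 0.13, edgeR adjusted p = 6.3e-06), 0.53 in D2 (SE 0.10, edgeR adjusted p = 0.00019) and 0.77 in eccentric nuclei (SE 0.17, edgeR adjusted p = 0.011). Crem gave 1.37 in D1 nuclei (SE 0.28, edgeR adjusted p = 0.0011), and Sik1 there 1.08 (SE 0.38, edgeR adjusted p = 0.17), which did not pass. Of all genes, 2.15%, 1.36% and 0.543% were called in the 3 classes. For Gadd45b in D1 nuclei the effect was 0.42 (SE 0.38) in the top 10% and 0.58 (SE 0.19, unadjusted p = 0.00996) in the rest, a difference of -0.10 (SE 0.44). Without saline replicate 2 the D2 difference for Ntrk2 was 0.29 (edgeR adjusted p = 0.28). The eccentric one was 0.50 without saline replicate 1 (edgeR adjusted p = 0.52) and 0.74 without cocaine replicate 1 (edgeR adjusted p = 0.090). The Crem difference was 0.91 without cocaine replicate 1 (edgeR adjusted p = 0.27) and 0.96 without saline replicate 2 (edgeR adjusted p = 0.19).

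The top 10% is the same share of nuclei in each library but not the same level of activity. Activity-gene UMIs in the D1 top 10% made up 1368, 2281, 860 and 1953 CPM, so both cocaine libraries were higher there (saline female, cocaine female, saline male, cocaine male). In the rest they were 42.7, 48.5, 36.6 and 56.7 CPM. The part of this gap in the Ntrk2, Crem and Sik1 differences was not tested. Astrocyte markers, 8 in all, summed to 575, 702, 714 and 674 CPM in the D1 top 10% and to 539 to 641 CPM in the rest; 5 of the 8 glutamatergic markers were at 0 UMIs in the top 10%. D1 markers summed to 1131, 1703, 1231 and 1923 CPM in the D1 top 10%, higher with cocaine, and to 821, 741, 814 and 895 CPM in the rest. The 4 GABAergic markers summed to 576, 1022, 557 and 862 CPM in the D1 top 10%, also higher with cocaine. The D1 class held 617, 829, 758 and 918 nuclei of cluster C2 and 216, 541, 593 and 439 of C5. In the D2 top 10% the 6 D1 markers summed to 21.2, 95.3, 60.9 and 178 CPM, higher with cocaine, beside 1589 to 1843 CPM of D2 markers. In the eccentric top 10% D1 markers summed to 610, 1237, 609 and 1265 CPM, higher with cocaine, and the 7 eccentric markers to 2568, 1788, 2505 and 1657 CPM, lower with cocaine. The part of these shifts in the D1, D2 and eccentric results was not tested. Ntrk2 in the D1 top 10% also passed with DESeq2 (0.87, adjusted p = 4.9e-09) and lost its call only without saline replicate 2 (0.68, edgeR adjusted p = 0.065). The D2 and eccentric calls for Ntrk2 were lost with DESeq2 (adjusted p = 0.998 and 0.30), and the Crem call without cocaine replicate 1 (0.82, edgeR adjusted p = 0.31) or saline replicate 2 (0.98, edgeR adjusted p = 0.15). The D2 call was also lost without cocaine replicate 1, saline replicate 2 (0.14) or cocaine replicate 2. The eccentric Ntrk2 call was lost without saline replicate 1 (0.50) or cocaine replicate 1. Sik1 lost its D1 call without cocaine replicate 1 or saline replicate 2 (0.62), and its eccentric call without saline replicate 1 or cocaine replicate 1 (0.86). DESeq2 gave no adjusted p for Crem or Sik1 here.

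Seen the other way, nuclei with a UMI of a gene were compared with nuclei without one, over the full activity list. In D1-MSN-like nuclei the activity level was 2.72, 5.16, 1.84 and 3.13 times as high where Sik1 was detected. For Crem these ratios were 1.27, 2.49, 1.04 and 1.94, and for Gadd45b 1.53, 1.14, 1.26 and 0.997. For Bdnf in glutamatergic-like nuclei they were 1.54, 3.70, 2.64 and 2.27, from 5, 45, 7 and 15 nuclei with a UMI. Without Homer1 the Bdnf ratio in saline female was 0.617 and in the other libraries 3.20 to 3.57. In saline male the nuclei with a Bdnf UMI were deeper, with a median of 16290 UMIs against 8198.

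Around these genes, 115 listed genes of CREB and BDNF signalling, the 6 included, were read from the same fits: CREB relatives, CREB kinases, salt-inducible kinases and targets, neurotrophins and receptors, TrkB signalling, pro-BDNF processing, the Gadd45 family and textbook CREB targets. In D1-MSN-like nuclei 3 of 101 tested rose and none fell, where 0.226% of all genes were called. Nr4a3, an orphan nuclear receptor and CREB target, was 25.4, 92.3, 14.2 and 66.8 CPM, a log2 difference of 2.03 (SE 0.11, edgeR adjusted p = 2.8e-06). Pcsk1, a prohormone convertase, rose by 1.28 (SE 0.14, edgeR adjusted p = 0.0025). Scg2, a granin of dense-core vesicles, rose by 0.58 (SE 0.078, edgeR adjusted p = 0.011). Without cocaine replicate 1 all 3 calls were lost, and without cocaine replicate 2 those of Pcsk1 and Scg2. These fits also had no sex term, and without that term no gene was called in this class with all 4 libraries. With 1 library left out the log2 differences ran from 1.65 to 2.49 for Nr4a3, 1.08 to 1.49 for Pcsk1 and 0.53 to 0.63 for Scg2.

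In D2-MSN-like nuclei 2 of 97 rose, Nr4a3 by 1.44 (SE 0.13) and Pcsk1 by 0.94 (SE 0.14), and none fell. Of all genes, 0.0471% were called in D2- and 0.279% in eccentric MSN-like nuclei. In eccentric MSN-like nuclei 4 of 96 rose, Junb by 0.81, Nr4a3 by 1.64, Pcsk1 by 2.39 and Scg2 by 0.76. With each library left out in turn, Nr4a3 kept its call in D2 and eccentric nuclei. The other calls were each lost with at least 1 library out, with adjusted p reaching 0.21 for Pcsk1 in D2 nuclei and 0.70 for Junb, 0.28 for Pcsk1 and 0.13 for Scg2 in eccentric nuclei. In glutamatergic-like nuclei none of 88 passed, where 0% of all genes were called. In cluster C2 10 of 99 rose (Btg2, Fosb, Gadd45g, Inhba, Nr4a3, Ntrk2, Pcsk1, Scg2, Shc3 and Sik2) and 1 fell (Rps6ka4). Of all genes, 2.18% were called in C2. In C5, where 0.974% of all genes were called, 6 of 96 rose (Gadd45b, Junb, Mef2c, Nr4a3, Pcsk1 and Shc3) and 1 fell (Pde4b). Most calls over all genes in these clusters did not hold: C2 went from 272 to 7 with DESeq2 and C5 from 116 to 2. Without sex in the model they were 3 and 0. Stability by gene is not given here for cluster calls other than those of Ntrk2 and Gadd45b. The 18 tested CREB targets had a median log2 difference of 0.37 in D1 nuclei, 1 called, against a median of 0.00019 over all tested genes. The 22 tested TrkB signalling genes had a median of -0.01 there, none called, and the 17 CREB kinases and phosphatases one of 0.04, none called.

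In astrocyte-like nuclei 5 of 82 listed genes rose and 1 fell, where 1.38% of all genes were called. Creb5, a CREB relative, rose from 17.4 and 17.0 CPM with saline to 35.4 and 34.9 CPM with cocaine, a log2 difference of 1.02 (SE 0.28, edgeR adjusted p = 0.024). Hdac4, a histone deacetylase that salt-inducible kinases phosphorylate, rose by 0.60 (SE 0.11). Sorcs1, a sorting receptor of the sortilin family, rose by 0.50 (SE 0.10), and Nr4a3 by 1.81 (SE 0.43). Ntrk3, the receptor for neurotrophin-3, was 597, 380.0, 455 and 306 CPM and fell by 0.61 (SE 0.11, edgeR adjusted p = 5.7e-06). Pde10a, a phosphodiesterase that is itself an MSN marker, rose by 2.74 (SE 0.14) and kept its call with each library left out. The Creb5 and Nr4a3 calls were lost whichever library was left out (edgeR adjusted p 0.22 to 0.52 and 0.12 to 0.84). Hdac4 (up to 0.61), Ntrk3 (up to 0.86) and Sorcs1 (up to 0.999) lost theirs without cocaine replicate 1, cocaine replicate 2 and others, and Sorcs1 fell to 0.15 without saline replicate 1. None of these calls but that of Pde10a held with DESeq2. The 9 MSN markers summed to 1247, 1578, 1116 and 1493 CPM in these nuclei (saline female, cocaine female, saline male, cocaine male), 5 of them higher with cocaine without overlap, and their part in these calls was not tested.

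Across 44 sums of 11 classes and 4 libraries, the genes most like each of the 6 were found by Pearson correlation of log2(CPM + 1) among 9317 genes. The points share libraries, so r is a description. Bdnf was most like Slc17a7 (r = 0.886), then Trabd2b and Rtn4r, and Ntrk2 like Chst10 (r = 0.975), Flrt2 and Kcnma1. Crem was most like Myo6 (r = 0.911), Cnksr3 and Selenop, and Creb1 like Elf1 (r = 0.945), Tbc1d5 and Pld1. Sik1 reached lower values, with Tnfaip8l3 (r = 0.783), Pttg1ip and Junb, as did Gadd45b with Cipc (r = 0.817), Sytl2 and Actn4.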

How the data were processed

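Gene by nucleus matrices of raw UMI counts were deposited by the authors, made with Cell Ranger 6.1.2 per the file headers; the build was rn7 per the submitters' processing notes. Barcodes below 200 detected genes or above 5% mitochondrial UMIs were dropped. Likely doublets, 0.8% per 1000 nuclei by Scrublet score, were removed (scanpy 1.11.5, Python 3.11.15). Clustering used 2000 variable genes without the 6 described genes, 30 components, 15 neighbours and Leiden resolution 0.5 (leidenalg 0.10.2). Clusters were named from marker lists, and the score limits for naming were set after the clusters had been seen.

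UMIs were summed per library and class (at least 25 nuclei in each library) or cluster (at least 50). Cocaine was tested against saline over all genes with edgeR 4.0.16 (R 4.3.3, limma 3.58.1), quasi-likelihood, TMM scaling, filterByExpr and sex as a covariate, with Benjamini-Hochberg adjustment at 0.05. Each gene keeps 1 residual degree of freedom, so its spread is largely borrowed across genes; in cluster C2 and in astrocyte-like, Sst-like and oligodendrocyte precursor-like nuclei all genes shared 1 fitted spread. Same-sex libraries deviated together from the treatment means in the 7 classes and clusters checked (correlation across genes 0.169 to 0.429), and sex comes from the labels. The p-values measure the spread between pooled libraries only. Differences between classes, clusters or portions of a class were tested with library as a block. The self-test used simulated counts. DESeq2 1.42.0, RLE scaling, no filter, no sex term, doublets kept, a finer clustering (resolution 1.0), a marker gate and leaving out each library were alternatives. Cocaine fits within a class, cluster or portion had no sex term when 1 library was left out. A call lost there cannot be told apart from the loss of that term.

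The 6 genes and all lists were chosen with earlier results of these data known, and the activity split, the cluster contrasts and Bdnf without its top nucleus were added after results were seen. Named list genes are those called with 1 sign in both sexes in D1-, D2-, eccentric MSN-, glutamatergic- or astrocyte-like nuclei, at most 20 a class, and up to 3 per difference between classes; list genes named for clusters were chosen after their values were seen. Likeness names the 3 genes of highest correlation among those averaging at least 10 CPM. Pvalb, Slc18a3, Flt1, Cldn5, Foxj1, Creb3 and Dusp1 had no matched symbol and were not used here. Shares carry counting error only. Ntrk2 had no matched promoter window.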

Additional observations from a re-analysis of the deposited data

Results flagged for a closer look

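The cocaine effect differed between the top 10% of nuclei by activity-gene share and the other nuclei, by a test of the difference itself, for Ntrk2 in D1-MSN-like (0.86 on the log2 scale), D2-MSN-like (0.53) and eccentric MSN-like nuclei (0.77) and for Crem in D1-MSN-like nuclei (1.37). The portions were cut on activity genes, whose level in the D1 top 10% was itself higher with cocaine. D1 markers also summed higher with cocaine in the D1, D2 and eccentric top 10%. The part of these shifts in the differences was not tested. The D2, eccentric and Crem calls were each lost with some library left out, where the differences fell to 0.29, 0.50 and 0.91. Between D1- and D2-MSN-like nuclei the cocaine effect differed for the list genes Shc3 (0.60) and Sik2 (0.35). Those calls were lost without cocaine replicate 1 (0.42 and 0.19). Ntrk2 was also present in the unnamed cluster 13, led by Stac, Adamtsl1 and Drd3, which entered no comparison: the lower of its 2 cocaine libraries had 416.8 CPM.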

How the results depend on the processing

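The 12 gene and class pairs checked for their level between classes kept their calls in all 60 alternative values. Not all pairs did. Those called higher numbered 26 to 29 and those called lower 13 to 15 when 1 library was left out, against 29 and 18 with all. The number of cocaine tests passed over the 11 classes was 0, with 1 under the marker gate and 0 to 2 when 1 library was left out. Over the 4 clusters it was 2, with 0 by DESeq2, 0 with treatment alone (no replicate block by sex), 0 whichever library was left out, and 3 with RLE scaling, no filter or the finer clustering. In the top 10% by activity it was 6, with 1 by DESeq2, 3 for the top 5%, 4 for the top 20%, 4 without the replicate block and 1 to 5 when 1 library was left out; in the other 90% it was 0 throughout. The number of D1 minus D2 differences passed was 0, with 0 to 1 when 1 library was left out. Ntrk2 in D2-MSN-like nuclei ran from -0.070 to 0.087 when 1 library was left out, below 0 without saline replicate 2 (-0.070) and cocaine replicate 2 (-0.018). Its C2 minus C5 difference ran from -0.043, without saline replicate 2, to 0.22. Of the alternative values for the cocaine effect in a class or cluster, 252 kept direction and call, 77 lost the call, 6 gained one and 2 changed sign. The 77 losses fell on 15 results. For the activity portions 50 kept both, 26 lost the call, over 9 results, and 1 gained one. In both sets the values kept include results that were not called in the main fit. The causes were not tested. Depth limits the glutamatergic-like class: in its saline libraries 10 and 8 UMIs stand behind Bdnf, 4 and 3 behind Sik1 and 0 and 10 behind Gadd45b.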

Other observations

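Among classes too small to test, vascular-like nuclei had the highest Sik1 levels, at 289, 220, 107 and 159 CPM (saline female, cocaine female, saline male, cocaine male) from 4, 10, 5 and 6 UMIs. Ependymal-like nuclei had no Sik1 or Gadd45b UMI and 85.7 to 153 CPM of Crem. In the unnamed cluster 13, Ntrk2 was 330, 713, 377 and 417 CPM, and its Sik1 UMIs were 1, 20, 0 and 1.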
